A study of Mus musculus with 2 samples.

Results

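The translation initiation factors (eIFs) and elongation factors (eEFs) were taken from a table of messenger RNA levels in macrophages of the mouse grown in culture out of bone marrow progenitors (BMDMs). Members were chosen by symbol alone, as every row named Eif1 to Eif6, Eef1 or Eef2 with any suffix, leaving out the eIF2 alpha kinases Eif2ak1 to Eif2ak4. This gave 68 of the 15576 genes in the table. The DCA library came from BMDMs exposed for 24 h to deoxycholic acid at 100 µM, a bile acid that gut bacteria produce, and the NC library from BMDMs collected without it. Both are described as wild type, and the sources used here do not give the strain, sex, age, number of mice or vehicle. It is unclear from the labels whether cells were collected at the end of the 24 h or a day later. Each group had 1 library, so no difference below has a replicate check, no test was made, and how much cultures vary is unknown. The comparison is of RNA from a BMDM culture after deoxycholic acid with RNA from a culture without it. Markers of other marrow cells were present in both libraries and are given below, so the RNA is not of macrophages alone.

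Initiation factors bring the initiator tRNA and the small ribosomal subunit to the capped end of a messenger RNA, scan to the start codon and admit the large subunit. Elongation factors then deliver aminoacyl-tRNAs and move the ribosome along. The pathway has a pair of well-known control points. Phosphorylation of eIF2 by stress kinases blocks its recycling by eIF2B, and the eIF4E-binding proteins, controlled by mTORC1, hold the cap-binding protein eIF4E away from its scaffold. Both are set mainly on proteins, which RNA levels do not show.

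The levels of the factors were close in DCA and NC. Of the 68 members, 61 had a mean of at least 1 FPKM (a read count per kilobase of gene and per 1e6 reads) and were compared, and 57 of these differed by less than 1.1-fold in FPKM + 1. Members above that limit were few: Eif4a3l2 was higher in DCA, and Eif4e3, Eif1b and Eif4a3 were lower. Eif4a3 lay close to the limit and was inside it with a pseudocount of 5, at a difference of -0.11 in log2(FPKM + 5). That is 1 of 61 members at least 1.1-fold higher, against 8.99% of the 9656 genes compared, and 3 of 61 at least 1.1-fold lower, against 4.79%. No member was 1.5-fold or 2-fold apart, against 0.497% and 0.249% of all genes. In all, 38 of 61 members lay above 0 in DCA minus NC, against 53.5% of all genes. When each library was rescaled to the same FPKM sum, 31 of 61 did so. The median difference of all genes was then -0.0048, so the 53.5% is not the share to set beside that count. The median difference in log2(FPKM + 1) was 0.013 for the members and 0.0067 for all genes, and the SD was 0.073 for the members and 0.15 for all genes. In bulk RNA, fewer cells of a type and less RNA per cell cannot be told apart.

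**Figure D1:**
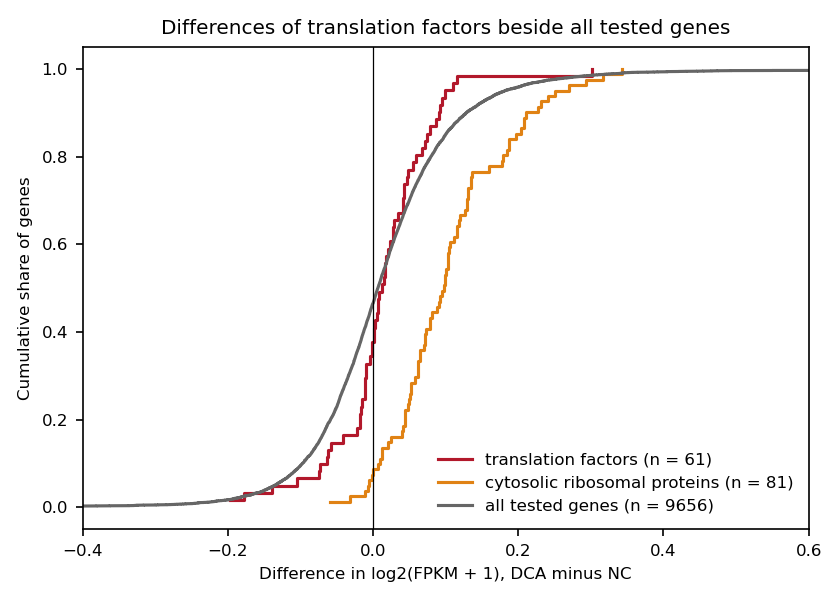
Cumulative share of genes (vertical axis) against DCA minus NC in log2(FPKM + 1) (horizontal axis), for 61 translation factors, 81 cytosolic ribosomal protein genes and 9656 genes in all, from 1 library per group. The curve of the translation factors crosses the middle near that of all genes, with medians of 0.013 and 0.0067, and the ribosomal protein curve lies to the right, with a median of 0.098.

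Whole read counts could be rebuilt from the FPKM for 66 members, which allows a ratio of DCA over NC with a 95% interval. The interval (exact Clopper-Pearson) covers counting error only. The sources used here do not say whether PCR copies of a molecule were removed, and any left are counted as separate reads. The interval compares these libraries, not the conditions. Over the 59 compared members with rebuilt reads the median ratio was 1.008, with quartiles of 0.990 and 1.03, beside 1.006 for 9371 genes in all. The interval lay above 1 for 14 members, against 25.6% of all genes, and below 1 for 7, against 20% of all genes. The members had more reads than most genes, with a median of 5447 in DCA against 2775 for all genes. Across the 59 members the ratio and the level had a Spearman rho of -0.017. This is a description over genes of the same pair of libraries.

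**Figure D2:**
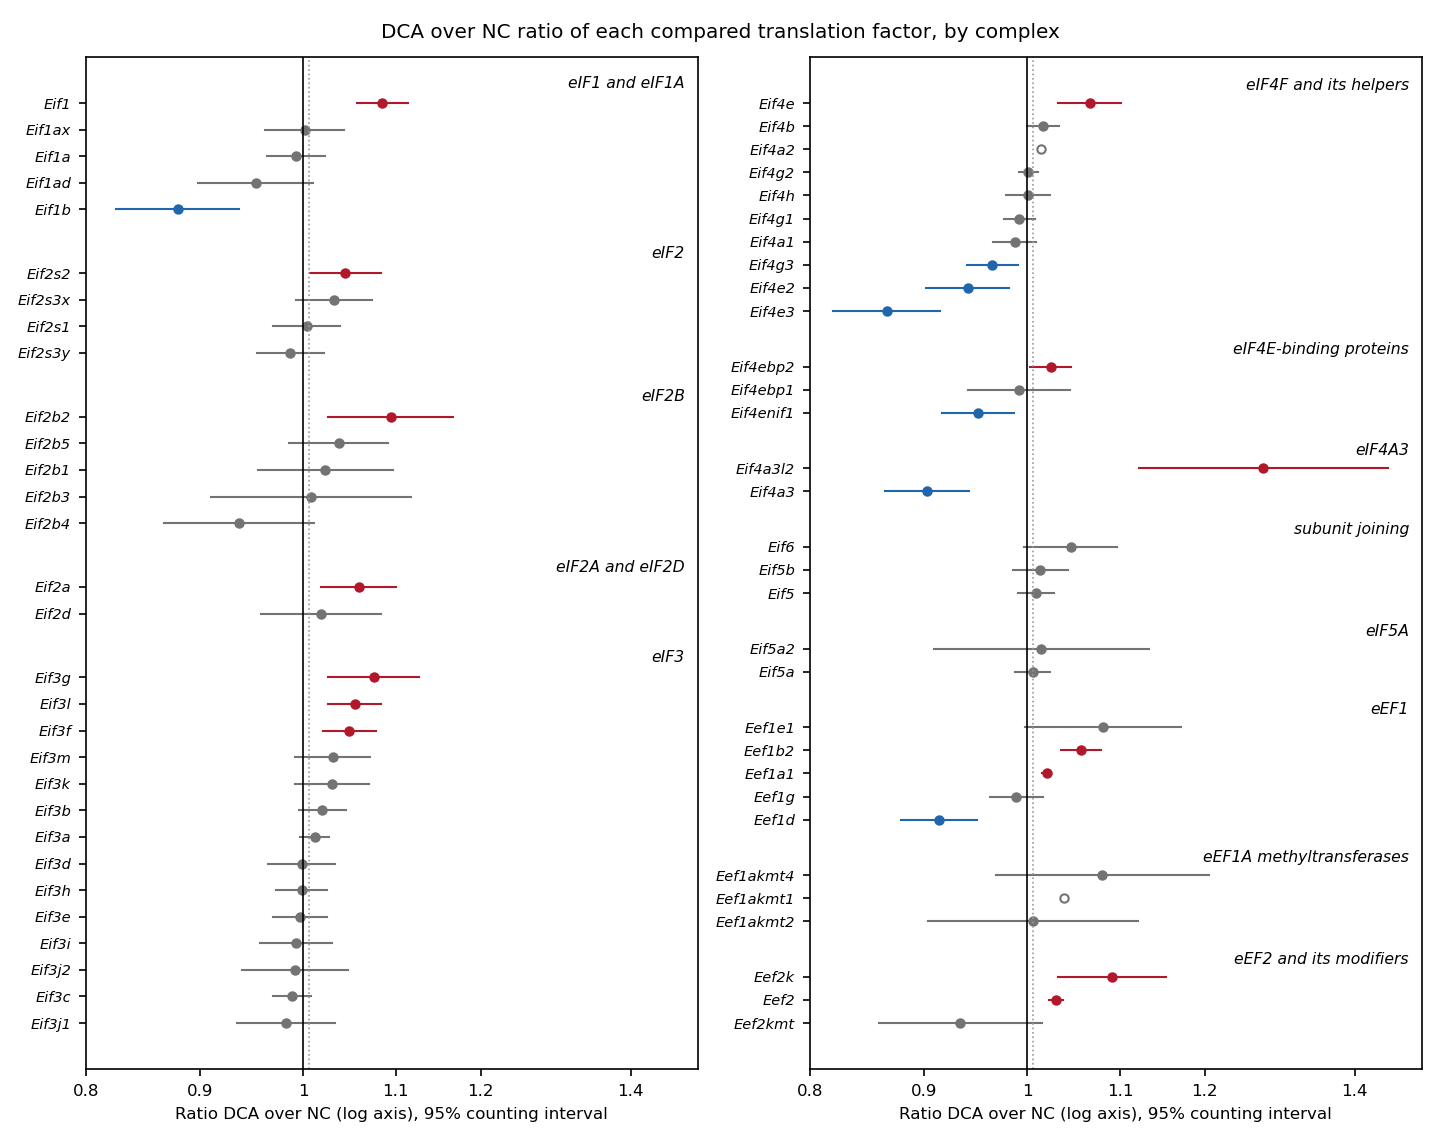
Ratio of DCA over NC (log axis) for each of the 61 compared factors, grouped by complex and sorted within it. Bars are 95% counting intervals, red above 1, blue below 1 and grey across 1, open circles are FPKM ratios without an interval, and the dotted line is the median of all genes, 1.006. Most points lie close to the line at 1, with Eif4e3 (0.866) and Eif1b (0.879) farthest to the left and Eif4a3l2 (1.27) farthest to the right.

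Together the 66 members took 1.82% of the reads in DCA and 1.80% in NC. Eef1a1 alone took 0.634% in DCA and 0.621% in NC, and Eef2 took 0.255% in DCA and 0.248% in NC. Without them the other 64 summed to a ratio of 1.0076 (95% interval 1.0038 to 1.011). To set genes beside each other, levels were recomputed per kilobase of merged exons, since the rebuilt reads came out whole with a gene length that sums all its transcripts, a length inferred here and not stated by the authors. On this scale Eef1a1 had 2541 in DCA against 2491 in NC, Eef2 had 768 in DCA against 745 in NC, and Eif5a had 169.5 in DCA against 168.5 in NC. The lowest compared members were Eif5a2, at 2.25 in DCA against 2.21 in NC, and Eif2b3, at 1.998 in DCA against 1.98 in NC. The order barely moved, and 57 of 61 members kept their rank within 2 places between the libraries.

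**Figure D3:**
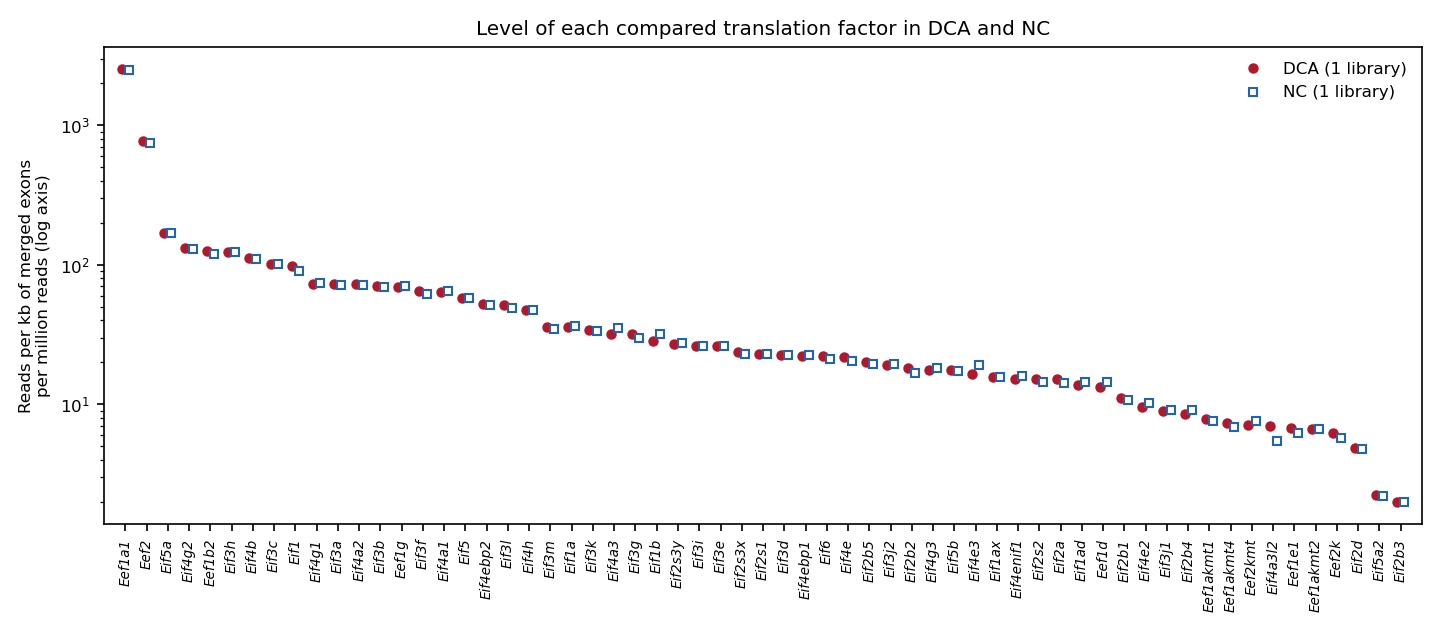
Level of each of the 61 compared factors, in reads per kilobase of merged exons per 1e6 reads (log axis), in DCA (filled circles) and NC (open squares), 1 library each, sorted by the DCA level. The symbols nearly coincide, from Eef1a1 at 2541 in DCA against 2491 in NC down to Eif2b3 at 1.998 in DCA against 1.98 in NC.

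The start-site sequences of the factors were searched for the E-box and for a pyrimidine run, each of which was found in a minority of them. RefSeq (GRCm38.p6) gave promoter windows, from 250 bases before to 50 after an annotated start, for 50 of the 68 members. The E-box CACGTG, which reads the same on both strands and is bound by MYC and related factors, was in the windows of 14 of these 50 members (28%) and of 12.3% of the 7779 genes of the table that passed the level limit and had a window. The sites below are those of factors that the results turn on: cap binding (Eif4e and its scaffold Eif4g1, each with a pair of sites), elongation (Eef2 and its kinase Eef2k) and Eif1b. Capitals mark the E-box.
Eif4e, chr3:138527028-138527057, plus strand: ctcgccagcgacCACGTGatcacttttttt
Eif4e, chr3:138527192-138527221, plus strand: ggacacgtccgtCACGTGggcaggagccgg
Eif4g1, chr16:20672661-20672690, plus strand: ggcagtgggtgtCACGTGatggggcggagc
Eif4g1, chr16:20672730-20672759, plus strand: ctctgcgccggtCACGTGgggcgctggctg
Eef2, chr10:81176576-81176605, plus strand: acccggcgccgtCACGTGacgcacccaacc
Eef2k, chr7:120842788-120842817, plus strand: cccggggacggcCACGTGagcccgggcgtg
Eif1b, chr9:120492570-120492599, plus strand: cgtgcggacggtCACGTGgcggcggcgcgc
The ratios of these genes ran from 0.879 for Eif1b to 1.091 for Eef2k, so members with the E-box lay on both sides of 1. The 13 compared members with the motif had a median ratio of 1.015, and the 33 without it 1.016.

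Many mRNAs of the translation machinery begin with a C followed by a run of pyrimidines, the 5′ terminal oligopyrimidine (TOP) motif, through which mTORC1 and LARP1 control their translation. A run of at least 9 C or T that starts with C was sought on the sense strand, which reads as the mRNA. The search ran from 20 bases before the annotated start to 50 after it. Such a run was found in 15 of the 50 members (30%) and in 15.6% of the 7779 genes. The next members are shown because their run begins within 5 bases of an annotated start, and Eif2s3x and Eif2s3y are the X-linked and Y-linked genes of the same eIF2 subunit. Capitals mark the run.
Eif3f, chr7:108934404-108934433, plus strand: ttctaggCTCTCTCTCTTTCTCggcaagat
Eif3l, chr15:79075217-79075246, plus strand: tcttcttccgCTCTCTCCCacgggcttctg
Eif2s3x, chrX:94212632-94212661, minus strand: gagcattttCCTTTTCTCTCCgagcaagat
Eif2s3y, chrY:1010587-1010616, plus strand: ccacagccaCTTCCTTCTTTCgtgagcaag
Eef1a1, chr9:78481710-78481739, minus strand: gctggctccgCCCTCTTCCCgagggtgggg
Eif3f and Eif3l had ratios of 1.049 and 1.054, Eef1a1 1.02, Eif2s3x 1.03 and Eif2s3y 0.987. The 14 compared members with such a run had a median ratio of 1.03, and the 32 without it 1.012. The runs of Eef1a1, Eif3f and Eif2s3x begin at -5, -4 and -1 from an annotated start, so their first bases lie outside that annotated mRNA. Annotated starts can differ from the starts used in these cells, and a run of these letters is not a measured TOP mRNA. The search took runs anywhere in its stretch and can miss a TOP motif at another start. These medians therefore do not separate TOP mRNAs from others.

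The factor eIF1 helps keep the scanning small subunit in an open state until a start codon is met. The eIF1 group held a pair of related genes that lay apart. Eif1 (ENSMUSG00000035530) had 57.3 FPKM in DCA against 52.8 in NC, with a ratio of 1.085 (1.057 to 1.11). Its paralogue Eif1b (ENSMUSG00000006941) had 21.3 FPKM in DCA against 24.2 in NC, resting on 1797 and 2139 reads, with a ratio of 0.879 (0.825 to 0.937). The level of Eif1b relative to Eif1, per merged exon length, was 0.289 in DCA against 0.356 in NC, a ratio between the libraries of 0.810 (approximate counting interval 0.757 to 0.867). Summed, both genes had 13398 reads in DCA against 13330 in NC, with a ratio of 1.052 (1.027 to 1.078). Of the 50-base stretches of Eif1 transcripts, 19.2% also occur in transcripts of other genes, and 4.202% of those of Eif1b do. Eif1b overlaps exons of D830035M03Rik, which has no value here. The remaining members, Eif1a, Eif1ax and Eif1ad, had ratios of 0.993, 1.002 and 0.953, all with intervals that include 1. Eif1ad was included by its symbol, and the scanning role given above is not stated for it.

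eIF2 carries the initiator tRNA, and its alpha subunit, encoded by Eif2s1, is the target of the stress kinases. Eif2s1 (ENSMUSG00000021116) had 20.9 FPKM in DCA against 20.8 in NC, with a ratio of 1.004 (0.970 to 1.039). The beta subunit gene Eif2s2 was at 7.40 in DCA against 7.09 in NC, with a ratio of 1.044 (1.007 to 1.083). It was the 1 of 4 eIF2 genes whose interval lay above 1, against 25.6% of all genes. No eIF2 interval lay below 1, against 20% of all genes. The gamma subunit is made from Eif2s3x and, in males, also from the Y-linked Eif2s3y. Eif2s3x had 16.4 FPKM in DCA against 15.9 in NC (1.03, 0.993 to 1.073), and Eif2s3y had 14.8 in DCA against 15.0 in NC (0.987, 0.954 to 1.02). Both were present in both libraries, with 6402 Eif2s3y reads in DCA against 6788 in NC. The level of Eif2s3y relative to Eif2s3x was 1.15 in DCA against 1.21 in NC, and the interval of the ratio between them, 0.908 to 1.0072, includes 1. Of the Eif2s3x stretches, 34.6% occur in other genes, mostly Gm2223, and 0% of those of Eif2s3y do.

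eIF2B, the exchange factor that recharges eIF2 with GTP, has 5 subunits, Eif2b1 to Eif2b5. Of these, 4 were above 0 in DCA minus NC, against 53.5% of all genes. The median difference was 0.028, against 0.0067 for all genes. Eif2b2, of the regulatory part, was the highest, at 5.77 FPKM in DCA against 5.27 in NC, with a ratio of 1.094 (1.026 to 1.17). Eif2b4 was the lowest, at 1.84 in DCA against 1.97 in NC, and its interval of 0.867 to 1.011 includes 1. The catalytic subunit gene Eif2b5 had a ratio of 1.037 (0.985 to 1.092). Eif2a and Eif2d, which encode alternative carriers of initiator tRNA, had ratios of 1.059 (1.019 to 1.1005) and 1.018 (0.957 to 1.083).

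eIF3, the largest initiation factor, bridges the small subunit and the mRNA. All 14 of its rows were compared, with 7 above and 7 below 0 and a median difference of 0.0075. The ratios ran from 0.983 for Eif3j1 to 1.075 for Eif3g. Eif3g had 18.6 FPKM in DCA against 17.3 in NC (1.026 to 1.127), Eif3f had 52.6 in DCA against 50.2 in NC (1.02 to 1.078), and Eif3l had 32.9 in DCA against 31.2 in NC (1.026 to 1.083). These were the 3 of 14 eIF3 genes whose interval lay above 1, against 25.6% of all genes. No eIF3 interval lay below 1, against 20% of all genes. The genes of the core, Eif3a, Eif3b and Eif3c, had ratios of 1.012, 1.02 and 0.989. The summed eIF3 reads were 142780 in DCA against 147453 in NC, with a ratio of 1.013 (1.0060 to 1.021). Eif3j1 and the single-exon Eif3j2 share most of their sequence, with 91.8% of Eif3j2 stretches found in other genes, so their split is uncertain, and their summed ratio was 0.987 (0.951 to 1.024).

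eIF4F assembles on the cap from the cap-binding eIF4E, the scaffold eIF4G and the RNA helicase eIF4A. The cap-binding genes lay on both sides of 1. Eif4e (ENSMUSG00000028156, GRCm38 chromosome 3) had 14.8 FPKM in DCA against 13.8 in NC, with a ratio of 1.066 (1.032 to 1.102). Eif4e2, which in mammals encodes a cap-binding protein tied to repression of translation, had 4.50 in DCA against 4.78 in NC, with a ratio of 0.941 (0.901 to 0.982). Eif4e3 (ENSMUSG00000093661, chromosome 6), an atypical member of the family, had 16.6 in DCA against 19.2 in NC, resting on 2360 and 2852 reads, with a ratio of 0.866 (0.820 to 0.915). Per merged exon length the level of Eif4e3 relative to Eif4e was 0.766 in DCA against 0.943 in NC, a ratio between the libraries of 0.812 (approximate counting interval 0.762 to 0.865). With the mean transcript length as the gene length, the same relative levels were 0.187 in DCA against 0.231 in NC, so only the ratio between the libraries is free of the choice of length. Eif4e3 overlaps Gm20696, a gene with 16 reads in DCA against 36 in NC, and their summed ratio was 0.861 (0.815 to 0.909). The reads of Eif4e, Eif4e2 and Eif4e3 together had a ratio of 0.988 (0.966 to 1.012).

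The scaffold and helicase genes lay nearer to 1. Eif4g1 had 8.61 FPKM in DCA against 8.68 in NC, with a ratio of 0.992 (0.976 to 1.0077), and Eif4g2, which encodes a scaffold without an eIF4E-binding site, had a ratio of 1.0013 (0.991 to 1.011). Eif4g3 was at 0.965 (0.940 to 0.990). Eif4a1 had 22.0 FPKM in DCA against 22.3 in NC, with a ratio of 0.987 (0.966 to 1.009), and Eif4a2 had 14.3 in DCA against 14.1 in NC. Reads could not be rebuilt for Eif4a2, and its FPKM ratio was 1.015. Of the Eif4a1 stretches, 28.4% occur in other genes, 12 in number. The helicase cofactors Eif4b and Eif4h had ratios of 1.016 and 1.0008, with intervals that include 1. The genes of the eIF4E-binding proteins were Eif4ebp1, an ATF4 target, at 17.5 FPKM in DCA against 17.6 in NC (0.992, 0.941 to 1.045), and Eif4ebp2, at 42.3 in DCA against 41.3 in NC (1.025, 1.003 to 1.046). Eif4enif1, the transporter that carries eIF4E to the nucleus, had 4.03 in DCA against 4.24 in NC, with a ratio of 0.951 (0.916 to 0.987).

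eIF4A3 is a helicase related to eIF4A that acts in the exon junction complex and not in scanning. Eif4a3 (ENSMUSG00000025580, GRCm38 chromosome 11) had 15.6 FPKM in DCA against 17.3 in NC, resting on 3838 and 4451 reads, with a ratio of 0.902 (0.864 to 0.942). Its single-transcript copy Eif4a3l2 (ENSMUSG00000107906, chromosome 6) had 6.97 in DCA against 5.47 in NC, resting on 537 and 441 reads, with a ratio of 1.27 (1.12 to 1.45). The pair lay on opposite sides of 1, and 63.4% of the Eif4a3l2 stretches and 16.5% of the Eif4a3 stretches are found in other genes, so the split of reads between copies is uncertain. Summed with Eif4a3l1, which was below the level limit, the family had 4407 reads in DCA against 4930 in NC, with a ratio of 0.936 (0.898 to 0.975). This sum does not depend on the split among these 3 genes, but 3838 of its 4407 reads in DCA are those of Eif4a3. Gm5576, the gene that shares most stretches with Eif4a3, is not in the sum, so the split of reads stays uncertain.

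**Figure D4:**
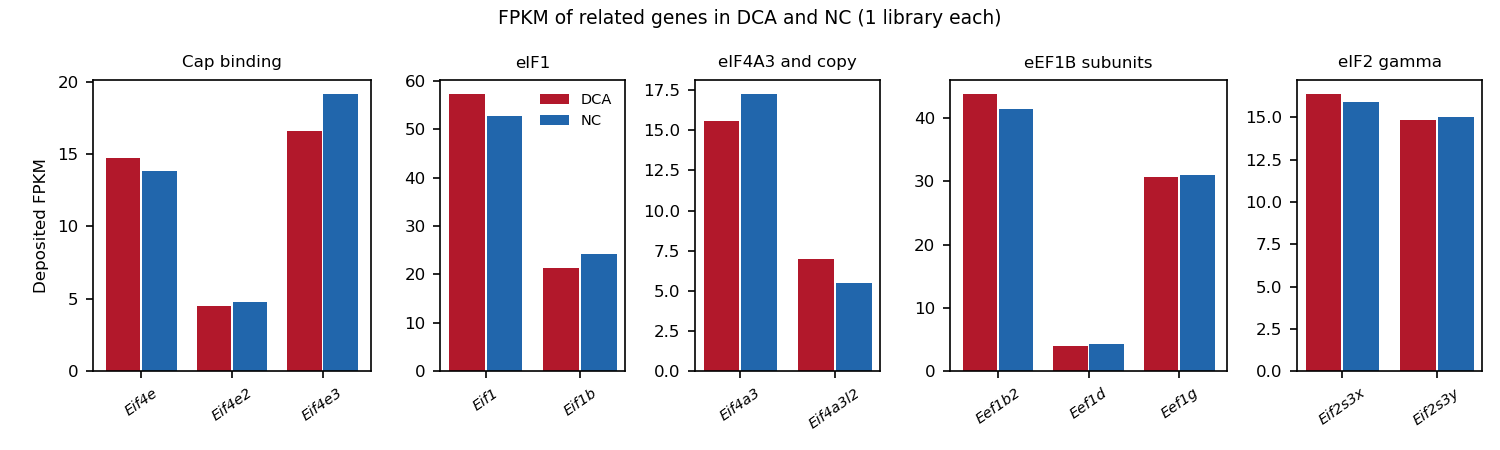
Deposited FPKM (vertical axes, each from 0) of cap-binding, eIF1, eIF4A3, eEF1B and eIF2 gamma genes in DCA (red) and NC (blue), 1 library each, with no error bars since there are no replicates. Heights are to be compared within a gene, not between genes. Eif4e is higher and Eif4e3 lower in DCA, at 14.8 in DCA against 13.8 in NC and at 16.6 in DCA against 19.2 in NC, and Eif1 and Eif1b and Eif4a3l2 and Eif4a3 also lie on opposite sides.

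The factors of subunit joining, Eif5, Eif5b and Eif6, had ratios of 1.009, 1.014 and 1.046, and each interval includes 1. Eif5a encodes the hypusine-bearing factor that relieves stalled ribosomes. It had 27.4 FPKM in DCA against 27.2 in NC, with a ratio of 1.006 (0.988 to 1.024), and Eif5a2 had 2.25 in DCA against 2.21 in NC, with a ratio of 1.015 (0.909 to 1.133).

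Of the 11 compared rows of the elongation side, 8 were above 0, against 53.5% of all genes, with a median difference of 0.043, against 0.0067 for all genes. Eef1a1, which encodes the tRNA-delivering eEF1A (ENSMUSG00000037742, chromosome 9), had 834 FPKM in DCA against 818 in NC, with a ratio of 1.02 (1.016 to 1.025), and 40.4% of its stretches occur in other genes, 21 in number. Eef2, the translocase (ENSMUSG00000034994, chromosome 10), had 599.0 in DCA against 581 in NC, with a ratio of 1.03 (1.023 to 1.038). These intervals are narrow because they rest on 358383 and 144327 reads in DCA. The eEF1B subunits, which recharge eEF1A, lay apart from each other. Eef1b2 had 43.8 FPKM in DCA against 41.4 in NC (1.057, 1.035 to 1.079), Eef1g had 30.6 in DCA against 31.0 in NC (0.989, 0.962 to 1.016), and Eef1d had 3.96 in DCA against 4.34 in NC (0.914, 0.879 to 0.949). The level of Eef1d relative to Eef1b2 between the libraries had a ratio of 0.864 (approximate counting interval 0.827 to 0.903). Naprt, which overlaps Eef1d on the same strand, had 212 reads in DCA against 243 in NC, and the summed ratio was 0.913 (0.880 to 0.949). Eef1e1, a component of the aminoacyl-tRNA synthetase complex, had a ratio of 1.081 (0.998 to 1.17).

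Eef2k, the calcium-dependent kinase that inhibits eEF2, had 2.95 FPKM in DCA against 2.71 in NC, resting on 2610 and 2504 reads, with a ratio of 1.091 (1.032 to 1.15). Eef2kmt, the methyltransferase of eEF2, had 2.92 in DCA against 3.13 in NC, and its interval of 0.859 to 1.015 includes 1. Of the eEF1A methyltransferases, Eef1akmt4 and Eef1akmt2 had ratios of 1.080 (0.969 to 1.205) and 1.006 (0.903 to 1.12), and Eef1akmt1, without rebuilt reads, had an FPKM ratio of 1.039. The 7 members below the level limit were Eef1a2, Eef1akmt3, Eef1aknmt, Eef1ece2, Eif1ad4, Eif4a3l1 and Eif4ebp3, at no more than 0.910 FPKM. Eef1aknmt had 936 reads in DCA against 975 in NC, with a ratio of 1.005. Eef1a2, the muscle and nerve form of eEF1A, had 23 reads in DCA against 7 in NC, with a ratio of 3.44 (1.43 to 9.49), and Eef1akmt3 had 3 in DCA against 15 in NC (0.209, 0.0388 to 0.740). Eef1ece2 had 23 reads in DCA against 0 in NC, and all of its 3432 exonic bases also lie in other genes. Eif1ad4 was listed at 0 in both.

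Other genes of the pathway are given by list. Of the 4 eIF2 alpha kinases and the phosphatase subunits Ppp1r15a and Ppp1r15b, 6 of 6 were above 0, against 53.5% of all genes. Their median ratio was 1.041, beside 1.006 for all genes. The highest was 1.057, and none was 1.1-fold apart. Among 14 mTORC1 genes and effectors, 7 were above and 7 below 0, with a median ratio of 1.0015 and 2 at least 1.1-fold higher, against 8.99% of all genes. Pdcd4, which encodes an inhibitor of eIF4A, had 5.76 FPKM in DCA against 4.97 in NC, with a ratio of 1.16 (1.09996 to 1.22), and overlaps no other gene. Rps6kb2, an S6 kinase gene, was at 3.26 in DCA against 2.76 in NC (1.18, 1.12 to 1.24) and overlaps Coro1b and Ptprcap. Mtor had a ratio of 1.014 and Rptor 0.903 (0.862 to 0.947).

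Of the 9 genes that make diphthamide on eEF2 or hypusine on eIF5A, 3 were at least 1.1-fold higher, against 8.99% of all genes, with a median ratio of 1.077 for the list. Dph1 had 2.20 FPKM in DCA against 1.75 in NC (1.255, 1.129 to 1.396), Dohh had 6.02 in DCA against 5.28 in NC (1.14, 1.057 to 1.23), and Dph3 had 2.08 in DCA against 1.76 in NC (1.18, 1.083 to 1.28). Each of these shares exonic bases with another gene, 969 of 2690 in Dph1. Dph7, with no overlap, lay the other way, at 1.18 in DCA against 1.39 in NC (0.844, 0.751 to 0.948). Of 12 genes of poly(A)-binding and scanning partners, 7 were above 0, against 53.5% of all genes, with a median ratio of 1.010. Of the 12, 1 gene was at least 1.1-fold lower, against 4.79% of all genes. It was Ltv1, which acts in making the small subunit, at 11.8 FPKM in DCA against 13.1 in NC (0.902, 0.849 to 0.958). Termination and recycling genes split 3 and 3, with a median ratio of 1.0006 and none 1.1-fold apart. Mitochondrial initiation and elongation factors had 5 above and 5 below 0 and a median ratio of 0.975. Of these 10, 1 was at least 1.1-fold higher, against 8.99% of all genes, and 1 at least 1.1-fold lower, against 4.79%. Mtif3 was at 3.14 in DCA against 2.60 in NC (1.207, 1.127 to 1.29), and Mrrf at 1.87 in DCA against 2.175 in NC (0.861, 0.773 to 0.958), while Mtif3 overlaps exons of Gtf3a and Mrrf those of Rbm18.

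Ribosomal protein genes, the other large class of the translation machinery, are set beside the factors here. Of the 83 cytosolic ribosomal protein genes in the table, 81 were compared, and 75 were above 0, against 53.5% of all genes, with a median ratio of 1.072 (quartiles 1.040 and 1.108), where 38 of 61 translation factors were above 0 with a median of 1.008. At the 1.1-fold limit 19 of 81 ribosomal protein genes and 1 of 61 factors were higher in DCA, against 8.99% of all genes. The difference between these groups was not tested, as there is 1 library per group.

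Markers of the labelled cell type and of other cells of a marrow culture were read in the same libraries. The 12 macrophage markers were all present, at 6.24 to 9803 FPKM in DCA and 6.93 to 9669 in NC. Of these, 3 of 12 were higher in DCA, against 53.5% of all genes, with a median ratio of 0.954. Their summed FPKM, most of it from Lyz2, was 10858 in DCA against 10763 in NC. Neutrophil markers were higher in 16 of 16, with summed FPKM of 4491 in DCA against 3810 in NC, and B cell markers in 7 of 7 compared, with summed FPKM of 173 in DCA against 139.0 in NC. All 7 eosinophil, mast cell or basophil markers were higher, with summed FPKM of 118 in DCA against 83.8 in NC, and so were 3 of 3 compared dendritic cell markers, with summed FPKM of 29.5 in DCA against 22.4 in NC. Of the T and NK cell markers, 1 of 5 was compared, and the summed FPKM was 2.74 in DCA against 2.01 in NC. Of 2 erythroid markers none was compared, and the highest, Hba-a1, was at 0.148 FPKM in DCA against 0.0708 in NC. Markers below the level limit lay on both sides. Igll1 (B cell), Cd3e (T cell), Xcr1 and Zbtb46 (dendritic cell) were lower in DCA. Vpreb1 (B cell), Cd3d, Cd3g and Lck (T cell), Clec9a (dendritic cell), Klf1 and Hba-a1 were higher. Cd3d, Cd3g and Klf1 were listed at 0 in NC. Igll1 had 35 reads in DCA against 75 in NC, and Vpreb1 had 48 in DCA against 25 in NC. The part of these cells in the differences of the factors was not tested. The read totals behind the FPKM were 56570555 in DCA against 59205366 in NC.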

How the data were processed

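The authors deposited FPKM values (reads per kilobase of gene and per 1e6 reads) for 15576 genes in 1 DCA and 1 NC library. Columns were matched to libraries by name and libraries to groups by their treatment label. The build was GRCm38, per the submitters' processing notes, which also name DESeq2 3.0, HTSeq 0.6.0, STAR 2.5.0c, bedtools 2.17.0 and Picard 1.126 with no role or order. For gene length, strand setting and filters, details were not given in the sources used here, so reads of overlapping genes on opposite strands cannot be told apart.

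GENCODE vM21 (GRCm38) supplied lengths, positions and overlaps for 15548 genes. With the summed length of all transcripts of a gene as its length, FPKM values came out as whole reads within 0.05 of a read for 11371 of 11791 genes under 5000 reads (96.4%), with totals of 56570555 reads for DCA and 59205366 for NC. Ratios are DCA over NC, scaled to these totals, with exact 95% intervals for counting error. Approximate intervals of relative levels use the normal form on the log scale. Differences are in log2(FPKM + 1) for genes with a mean of at least 1 FPKM, which understates the ratios of low genes. The text gives each member 1.1-fold apart, the highest and lowest of each complex, 11 factors fixed by name, and related genes past 1.1-fold. Other genes named were chosen after their values were seen. Sequence sharing was counted over all 50-base stretches of annotated transcripts, on both strands. The scripts were tested on simulated reads with counting error only, made with the same summed transcript length. That test could not check the inferred length or how much cultures vary. Members, lists and motifs were chosen with earlier results of these data known. Python 3.11.15, numpy 2.4.6, pandas 2.3.3 and scipy 1.17.1 were used.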

Additional observations from a re-analysis of the deposited data

How the results depend on the processing

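Pseudocounts of 0.1 and 5, no filter or a mean of at least 5 FPKM, rescaling each library to 1e6, scaling by the 75th percentile, subtracting the median of all genes and leaving out members with overlapping exons were tried. Without a filter, 2 members were at least 1.1-fold higher, since Eef1a2 joined Eif4a3l2, and 4 were at least 1.1-fold lower, since Eif4ebp3 joined. After rescaling to 1e6, 4 were lower, with Eef1d at -0.14, and with a pseudocount of 5, 2 were lower, without Eif4a3 at -0.11. Without members that overlap other exons, 25 of 37 were higher in DCA, where 38 of 61 were so before and 53.5% of all genes. That share still includes genes with overlapping exons, since only members were left out. Under this setting 1 member, Eif4a3, was at least 1.1-fold lower, since Eif1b and Eif4e3 overlap other exons and were left out. The median difference of the members lay between 0.0003 and 0.018. That of eIF3 was -0.0056 after rescaling to 1e6, that of eIF4F 0.0015 with a mean of at least 5 FPKM and that of eIF1 0.0021 without overlapping members, each on the other side of 0. The median difference of all genes was -0.0048 after rescaling to 1e6. Groups with fewer than 3 members left under a setting have no median there. Among single members, the difference of Eef1a1 moved to between 0.016 and 0.022 and that of Eef2 to 0.030 under some of the scalings. With the mean transcript length in place of merged exons, a setting chosen after seeing the data, 8 of the 10 members with the highest level in DCA remained. No paired analysis was possible because each group has 1 library, so no replicate could be left out either. Without replicates, the intervals show counting error only, and differences of a few percent cannot be told from differences between cultures.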
